A study of Drosophila melanogaster with 3 samples.

Results

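The Hippo pathway genes hpo, wts, sav, mats, yki, sd, ft, ds, ex and Mer were examined for binding of Trem, the zinc finger protein encoded by trade embargo (trem). They are 10 of the 13968 protein-coding genes of the annotation. They were chosen by name, as members of the pathway, but with earlier results of these data known. The material was whole Drosophila melanogaster embryos aged 0 to 14 hours, both sexes together, of a stable transgenic line in which Trem carries GFP at its C terminus. Chromatin was precipitated with an antibody against GFP in 3 biological replicates. These form 1 group, which therefore has no comparison between genotypes, stages or treatments. All cell types of the embryo contributed to each library, and the peak lists hold no expression values with which the tissue could be checked.

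The Hippo pathway restrains organ growth. In its kinase core, the kinase Hippo (hpo), with the scaffold Salvador (sav), activates the kinase Warts (wts) and its cofactor Mats (mats). Warts phosphorylates the coactivator Yorkie (yki) and keeps it out of the nucleus, where Yorkie otherwise acts with the DNA-binding protein Scalloped (sd). Signals reach the core through the atypical cadherins Fat (ft) and Dachsous (ds), and through the FERM-domain proteins Expanded (ex) and Merlin (Mer) beneath the cell membrane. Trem itself is known from female meiosis, where it is needed for the formation of double-strand breaks.

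All 4 kinase core genes carried a Trem-eGFP peak just upstream of their transcription start site (TSS), as did ex, Mer and yki, while the peak of ft lay farther upstream. A gene is called bound here when the summit of a peak that passed the irreproducible discovery rate (IDR) filter was no more than 500 bp from one of its TSSs. By this rule 8 of the 10 genes were bound, or 80.0%, against a background of 41.7% of all protein-coding genes. The core was bound at 4 of 4 genes, the cadherins and nuclear factors at 2 of 4 (ft and yki), and the FERM genes at 2 of 2. The genes ds and sd were not bound, although both had peaks nearby, described below. These counts are descriptions of named genes, not replicates, and no test was made of them. Precipitates from flies that lack the fusion protein were not analysed here, and how much of each peak is background was not tested.

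The sequences under the summits show what the bound stretches look like and which known promoter elements they hold. Each is the part of the 100 bp on either side of the summit that no annotated exon covers, read 5′ to 3′ on the strand of the gene, from the RefSeq release 6 genome (dm6 coordinates). Capitals mark matches to any motif searched. The motifs were TATCGATA (the DNA replication-related element, DRE), CGATA (the core of sites of the insulator protein BEAF-32, part of every DRE), GGTCACACT (motif 1, bound by M1BP), GAGAG (GAGA factor), CAGGTAG (Zelda), CATTCC (Scalloped) and CTGCCAAC, all on both strands. The promoters of wts, sav and mats, 3 of the 4 in the core, are shown because they differ in their elements, and that of hpo, which also held a DRE, is not printed here. The 2 ex sites allow its promoter to be set beside its stronger intronic site. Mer had the highest promoter signal of the bound genes, and ds the highest signal near any of the 10 genes.
wts, promoter, chr3R:30806623-30806823, minus strand: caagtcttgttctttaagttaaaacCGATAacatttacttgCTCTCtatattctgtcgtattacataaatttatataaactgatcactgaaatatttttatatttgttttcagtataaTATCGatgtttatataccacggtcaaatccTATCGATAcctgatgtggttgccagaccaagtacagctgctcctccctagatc
sav, promoter, chr3R:23061328-23061492, minus strand: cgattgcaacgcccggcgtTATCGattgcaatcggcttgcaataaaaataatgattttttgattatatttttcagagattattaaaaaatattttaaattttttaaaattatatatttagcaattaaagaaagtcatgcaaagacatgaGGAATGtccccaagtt
mats, promoter, chr3R:22421069-22421160, plus strand: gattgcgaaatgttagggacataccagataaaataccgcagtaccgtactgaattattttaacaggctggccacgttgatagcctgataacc
ex, promoter, chr2L:430977-431177, plus strand: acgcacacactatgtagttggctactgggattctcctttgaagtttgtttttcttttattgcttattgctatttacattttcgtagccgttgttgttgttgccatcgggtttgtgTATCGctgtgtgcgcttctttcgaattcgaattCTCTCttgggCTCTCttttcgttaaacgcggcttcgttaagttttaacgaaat
ex, intron 3, chr2L:441997-442197, plus strand: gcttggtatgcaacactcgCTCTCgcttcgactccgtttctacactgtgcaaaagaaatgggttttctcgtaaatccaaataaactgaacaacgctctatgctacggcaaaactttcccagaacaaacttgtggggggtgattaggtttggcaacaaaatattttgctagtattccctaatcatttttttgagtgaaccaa
Mer, promoter, chrX:19693516-19693716, minus strand: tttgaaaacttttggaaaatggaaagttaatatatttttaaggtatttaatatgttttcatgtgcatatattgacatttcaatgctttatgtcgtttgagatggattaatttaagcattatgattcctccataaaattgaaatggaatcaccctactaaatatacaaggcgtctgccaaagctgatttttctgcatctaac
ds, upstream, chr2L:715457-715657, minus strand: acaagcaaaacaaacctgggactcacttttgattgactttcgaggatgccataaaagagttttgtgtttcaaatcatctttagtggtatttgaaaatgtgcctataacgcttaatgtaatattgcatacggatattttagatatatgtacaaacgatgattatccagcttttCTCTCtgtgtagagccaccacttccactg

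The wts stretch held a complete DRE and 4 matches to CGATA, 2 of them within the DRE, which reads as CGATA on both strands. In the sav window CGATA matched 3 times, once in the stretch shown and otherwise at or within the adjoining first exon of its neighbour Ublcp1, beside 1 match to the Scalloped motif. The only motif 1 of the set lay in the mats window, but not within the stretch shown. The ex promoter held GAGAG 2 times and CGATA once, its intronic site GAGAG once, and the ds stretch GAGAG once. The windows of Mer and ft, and of the second wts summit, held no motif searched.

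Over the 9 summit windows at TSSs of bound genes, a DRE was present in 2, those of hpo and wts, against 9.09% of all IDR summit windows and 7.37% of the 201 bp that end at the TSS of every protein-coding gene. CGATA was present in 5 (hpo, wts, sav, yki and ex), against 38.7% of IDR windows and 38.4% of promoters. The DRE and motif 1 are elements of promoters that are active in most cells. GGTCACACT was present in 1, against 5.60% and 2.79%. GAGAG was present in 3 (wts, mats and ex), against 19.6% and 22.1%. The site of Scalloped, the nuclear partner of Yorkie, was searched because the pathway is known to feed back on its own genes. CATTCC was present in 2 (sav and yki), against 6.62% and 7.27%. CAGGTAG was present in none, against 0.816% and 1.15%. Such matches describe letters in a window and do not identify a bound factor.

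The letters CTGCCAAC were the 8-mer with the greatest excess in the 748 strongest IDR windows over promoters, and so were picked from these data. They occurred in 19.3% of those windows, in 2.80% of all IDR windows and in 1.50% of promoters. Among the 9 windows only that of yki held them, at a summit 2 bp upstream of the TSS. None of the 8 IDR windows elsewhere around the 10 genes held them. AT content of the 9 windows lay between 51.7% at hpo and 71.1% at Mer and at the second wts summit, and the median of all IDR windows was 65.2%.

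The promoter of hpo, the Ste20-family kinase at the head of the core (FBgn0261456, 2R 19493996 to 19496856, minus strand), had 1 IDR peak, 82 bp upstream of its TSS. Its signal, a value the authors gave to each peak and which the IDR list takes over from the pooled list, was 371.6, and it ranked 2240 of the 7477 IDR peaks. In replicates 1, 2 and 3 the matching summit, within 100 bp, ranked 2695, 2231 and 1999 of 30000, or 2308 ± 354 (SD, n = 3). The 3 ranks are close together, and hpo shared the peak with no other gene.

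At wts (FBgn0011739, 3R 30789625 to 30806619, minus strand), which encodes the kinase that phosphorylates Yorkie, 2 IDR summits lay 104 and 311 bp upstream. The nearer one had a signal of 280.8 and ranked 3472, and the farther one had 208.0 and ranked 5122. The farther peak was therefore the weaker one, but the better matched. Replicate 1 had no summit within 100 bp of the nearer peak. Replicates 2 and 3 placed the matching summit 51 and 78 bp upstream, at ranks 5845 and 2293. The farther one was matched in every replicate, at ranks 3843, 7415 and 5325. Both summits lay in the 498 bp between the TSS of wts and that of dj-1beta, a DJ-1 family gene on the other strand, and count for both genes. With IDR peaks kept only where they were among the 7477 strongest of both other replicates, the nearer wts peak was lost without replicate 2 and without replicate 3, which left 208.0 as the highest signal.

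The scaffold gene sav (FBgn0053193, 3R 23058609 to 23061304, minus strand) had the strongest core peak, with a signal of 527.9 at rank 1111 and a summit 124 bp upstream. In the lists of replicates 1, 2 and 3, each on its own scale, it had signals of 272.5, 133.3 and 126.3, at ranks 990, 1414 and 1536, or 1313 ± 287 (SD, n = 3). The 3 lists thus all placed it high. The summit lay 65 bp upstream of Ublcp1, a ubiquitin-like domain phosphatase gene whose TSS is 189 bp from that of sav, so it was nearer to the neighbour.

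For mats (FBgn0038965, 3R 22421161 to 22423302, plus strand), the Mob-family cofactor of Warts, the IDR summit lay 71 bp upstream with a signal of 380.9 at rank 2135. Replicate ranks were 3422, 1549 and 2294, or 2422 ± 943 (SD, n = 3). The TSS of Nop56, a gene for a protein of small nucleolar ribonucleoproteins, is 93 bp away on the other strand, and the summit was 22 bp upstream of it. A pooled peak with a signal of 83.7, below the IDR list, stood 23 bp upstream of the second annotated mats TSS.

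**Figure D1:**
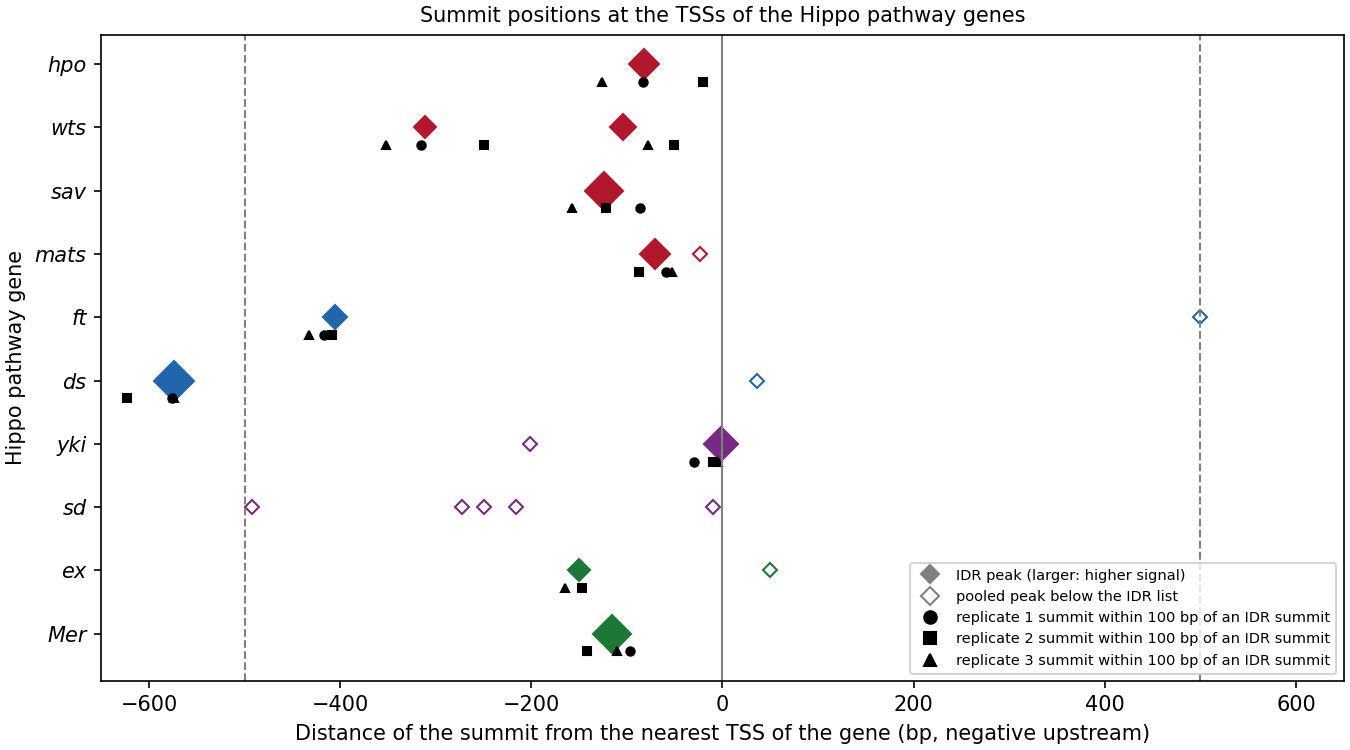
Distance in bp of peak summits from the nearest TSS of each Hippo pathway gene, with filled diamonds for IDR peaks (larger for a higher signal), open diamonds for pooled peaks below the IDR list and black symbols for summits of the 3 replicates within 100 bp of an IDR summit. The 9 IDR summits within 500 bp lie between 405 and 2 bp upstream, the ds summit lies 574 bp upstream, and sd has open diamonds only.

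All 8 bound genes had their strongest summit upstream of the TSS, as had 89.4% of the 5818 bound protein-coding genes, whose median position was 99 bp upstream, with quartiles at 172 and 39 bp upstream. The strongest summits of the core genes, 71 to 124 bp upstream, lay within those quartiles, as did Mer and ex. The summits of yki and ft lay outside them on either side. Between replicates the matched summits differed by an SD of 12.7 bp at ft and 53.3 bp at hpo, the extremes over the 7 peaks matched in every replicate.

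Of the nuclear factors, yki (FBgn0034970, 2R 24065975 to 24068485, minus strand), the coactivator that the core restrains, was bound and sd was not. The yki summit lay 2 bp upstream of the TSS with a signal of 458.4 at rank 1480. In replicates 2 and 3 it ranked 660 and 772, and in replicate 1 it ranked 3992. Replicate 1 thus stood apart from the others at this gene, and the mean rank was 1808 ± 1892 (SD, n = 3). Gpat4, a glycerol-3-phosphate acyltransferase gene, has its TSS 272 bp away on the other strand, and the same summit counts for it at 270 bp upstream. A pooled peak with a signal of 137.2, just below the IDR list, stood 201 bp upstream of yki and 71 bp upstream of Gpat4. Replicates 2 and 3 matched it at ranks 3277 and 6029, and replicate 1 did not.

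None of the 7 TSS positions of sd (FBgn0003345, X 15804370 to 15827682, plus strand), the TEAD-family partner of Yorkie, had an IDR summit within 500 bp, nor had the rest of the gene. Its strongest pooled peak, 216 bp upstream of the first TSS, had a signal of 131.1 at rank 8141, while the weakest IDR peak had 144.4. This sd peak was also 274 bp upstream of PGRP-LE on the other strand. Replicates 1 and 3 matched it only at ranks 19592 and 9244, and replicate 2 had no summit within 100 bp of it. A further 4 pooled peaks, with signals of 116.9 or less, stood at its TSSs. In each replicate the strongest summit at any of the 7 TSSs was a different one, ranked 8785 in replicate 1, 5040 in replicate 2 and 6263 in replicate 3. Replicates 2 and 3 therefore had sd among their 7477 strongest peaks, and in both that summit was the one upstream of an internal TSS, 289 and 319 bp away.

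The cadherin genes both had their IDR peak far from the TSS. At ft (FBgn0001075, 2L 4198404 to 4221796, minus strand), the receptor cadherin, the summit lay 405 bp upstream with a signal of 237.3 at rank 4357. Replicates 1, 2 and 3 ranked it 3399, 9516 and 4636, or 5850 ± 3234 (SD, n = 3). Replicate 2 was the low one and held it outside its 7477 strongest peaks. With peaks kept only where both other replicates had them among their strongest, ft was not bound without replicate 1 or without replicate 3, and it was bound without replicate 2.

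Near ds (FBgn0284247, 2L 640013 to 714983, minus strand), which encodes the cadherin that binds Fat, stood the highest signal of any IDR peak at these genes. It measured 580.0 at rank 899, and its summit was 574 bp upstream of the single TSS, just outside the limit of 500 bp. Its replicate signals were 278.2, 126.6 and 178.5, and it ranked 952, 1581 and 677 in replicates 1, 2 and 3, or 1070 ± 463 (SD, n = 3). No other gene had a TSS within 500 bp of it. Within the limit ds had only a weak pooled peak, 36 bp downstream, with a signal of 54.8 at rank 18442, and replicate 3 listed none there. With a limit of 1000 bp, or when any overlap of the peak with the window counted, ds was bound. The cadherins and nuclear factors were then bound at 3 of 4 genes. The share of all protein-coding genes bound was 45.0% and 43.1% under these rules.

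Of the FERM genes, Mer (FBgn0086384, X 19689697 to 19693500, minus strand), which encodes the fly homologue of the neurofibromatosis protein Merlin, had the highest promoter signal among the bound genes. It measured 538.4 at rank 1069, with a summit 116 bp upstream. Ranks of 1007, 1519 and 1154 gave 1227 ± 264 (SD, n = 3). No other gene shared the peak.

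The gene ex (FBgn0004583, 2L 431227 to 448701, plus strand), whose product binds Yorkie and is itself a known target of it, had the weakest promoter peak of the bound genes, at 204.7 and rank 5222, 150 bp upstream. Replicates 2 and 3 matched it at ranks 2518 and 3773. Replicate 1 had no summit within 100 bp of it, and the strongest within 500 bp of the TSS ranked 11823. The promoter peak of ex thus rests on replicates 2 and 3, and ex was not bound when either was left out.

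**Figure D2:**
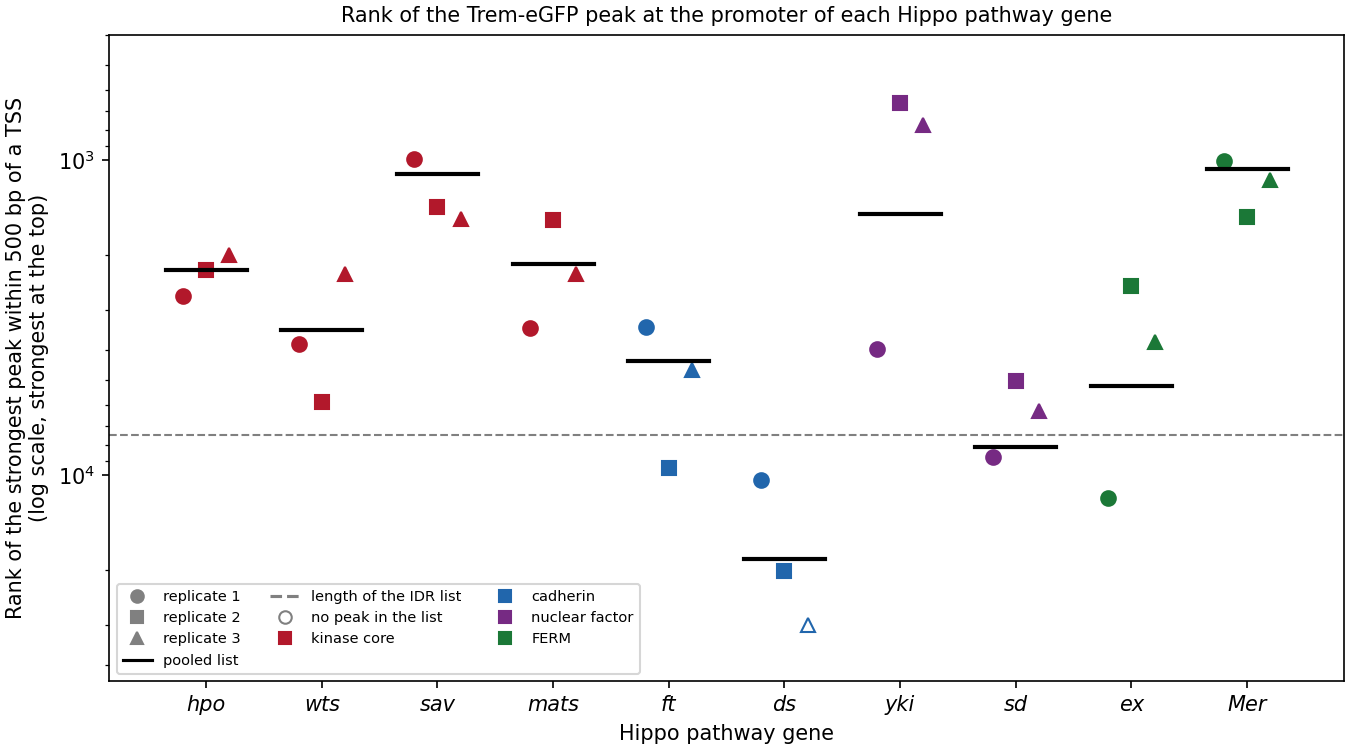
Rank of the strongest peak within 500 bp of a TSS of each gene (log scale, strongest at the top) in the lists of replicates 1, 2 and 3 (symbols), and in the pooled list (black bars), with the dashed line at 7477, the length of the IDR list. The 4 core genes and Mer lie above the line in all 3 replicates, as does yki, while ft, sd and ex have a replicate below it and ds lies below it wherever it has a peak (the open symbol marks the list without one).

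In the replicate lists the kinase core ranked higher than the cadherins and nuclear factors. The median best rank of hpo, wts, sav and mats was 3058.5, 1890 and 2146 in replicates 1, 2 and 3, and that of ft, ds, yki and sd was 6388.5, 7278 and 5449.5, where a gene with no peak in a list was placed after its last peak. The difference of the medians of log10 rank, core minus the others, was -0.42 ± 0.14 (SD, n = 3), with the core ranked higher in 3 of 3 replicates. The genes of a group are not replicates and 3 libraries are few, so no test was made. The difference rested on the limit of 500 bp, since it was -0.071 at 1000 bp, where the ds peak counts, and -0.79 at 250 bp, where the ft peak does not. The groups also overlapped, since yki ranked above all 4 core genes in replicates 2 and 3.

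The 7477 strongest peaks of replicate 1 bound 7 of the 10 genes, those of replicate 2 bound 8 and those of replicate 3 bound 9. The share over all protein-coding genes was 40.6%, 41.4% and 40.4% in the same lists. All 4 core genes were bound in every replicate. The missing genes were ds, sd and ex in replicate 1, ft and ds in replicate 2, and ds in replicate 3.

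Position beside a head-to-head gene, an oppositely oriented protein-coding gene whose TSS is within 1000 bp, separated the core from the cadherin and FERM genes. All 4 core genes had such a neighbour, with CG15120 at 896 bp in the case of hpo, as had yki and sd, whose neighbour PGRP-LE is 490 bp away. Of these 6 genes 5 were bound, against 72.0% of all protein-coding genes with such a neighbour. None of ft, ds, ex and Mer had one. Of these 4 genes 3 were bound, against 24.4% of genes without such a neighbour. No core gene lacked such a neighbour, so within the core its part in the binding was not tested. The cadherin genes ft and ds both lacked such a neighbour, and its part in the rank difference between the core and the others was not tested either. Outside the core, the genes with one were yki, which was bound, and sd, which was not. Among the 8 members with a single TSS position 7 were bound, against 36.4% of all genes with one.

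The signal at these promoters was moderate. The 8 bound genes ranged from 204.7 to 538.4 with a median of 376.2, and the strongest peak per bound protein-coding gene had a median of 329.3 with quartiles at 228.0 and 489.7. Of the 8, 5 exceeded that median and 2, Mer and sav, exceeded the upper quartile, above 80.0% and 79.0% of bound genes. At the other end ex exceeded 17.3% of bound genes and ft 27.8%.

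Away from the TSSs, 5 IDR peaks lay in introns of these genes, and they were in wts, ds and ex. In intron 3 of ex, 2 peaks stood 9863 and 10870 bp downstream of the TSS, with signals of 373.9 and 488.6. Both exceeded the ex promoter peak, at 204.7. The stronger one ranked 1126, 2302 and 1808 in replicates 1, 2 and 3, or 1745 ± 590 (SD, n = 3), and the other 2273, 3554 and 1751. Unlike the promoter peak, both were matched in all 3 replicates. Introns 1 and 2 of wts each held a peak, 1274 and 9085 bp downstream, with signals of 156.4 and 216.1. In replicates 1, 2 and 3 the intron 1 peak ranked 7718, 14892 and 3852, and the intron 2 peak 4284, 6439 and 8202. The intron 1 peak was thus among the 7477 strongest of replicate 3 only. In intron 2 of ds a peak of 179.8 stood 31724 bp downstream. Just past the end of wts, by 115 bp, was a peak of 227.7 that was not within 500 bp of any TSS. Past the end of ft, by 220 bp, was a peak of 217.2 that lay 113 bp upstream of the next gene, Naprt. Replicates 2 and 3 matched that peak at ranks 4445 and 6683, and replicate 1 did not. Among the 5 members of 10000 bp or more, 3 had a peak in the gene body, against 37.8% of all protein-coding genes of that length, and sd and ft had none. The 5 shorter members, of 2142 to 3804 bp, had none, and the share for all genes under 10000 bp was not computed.

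**Figure D3:**
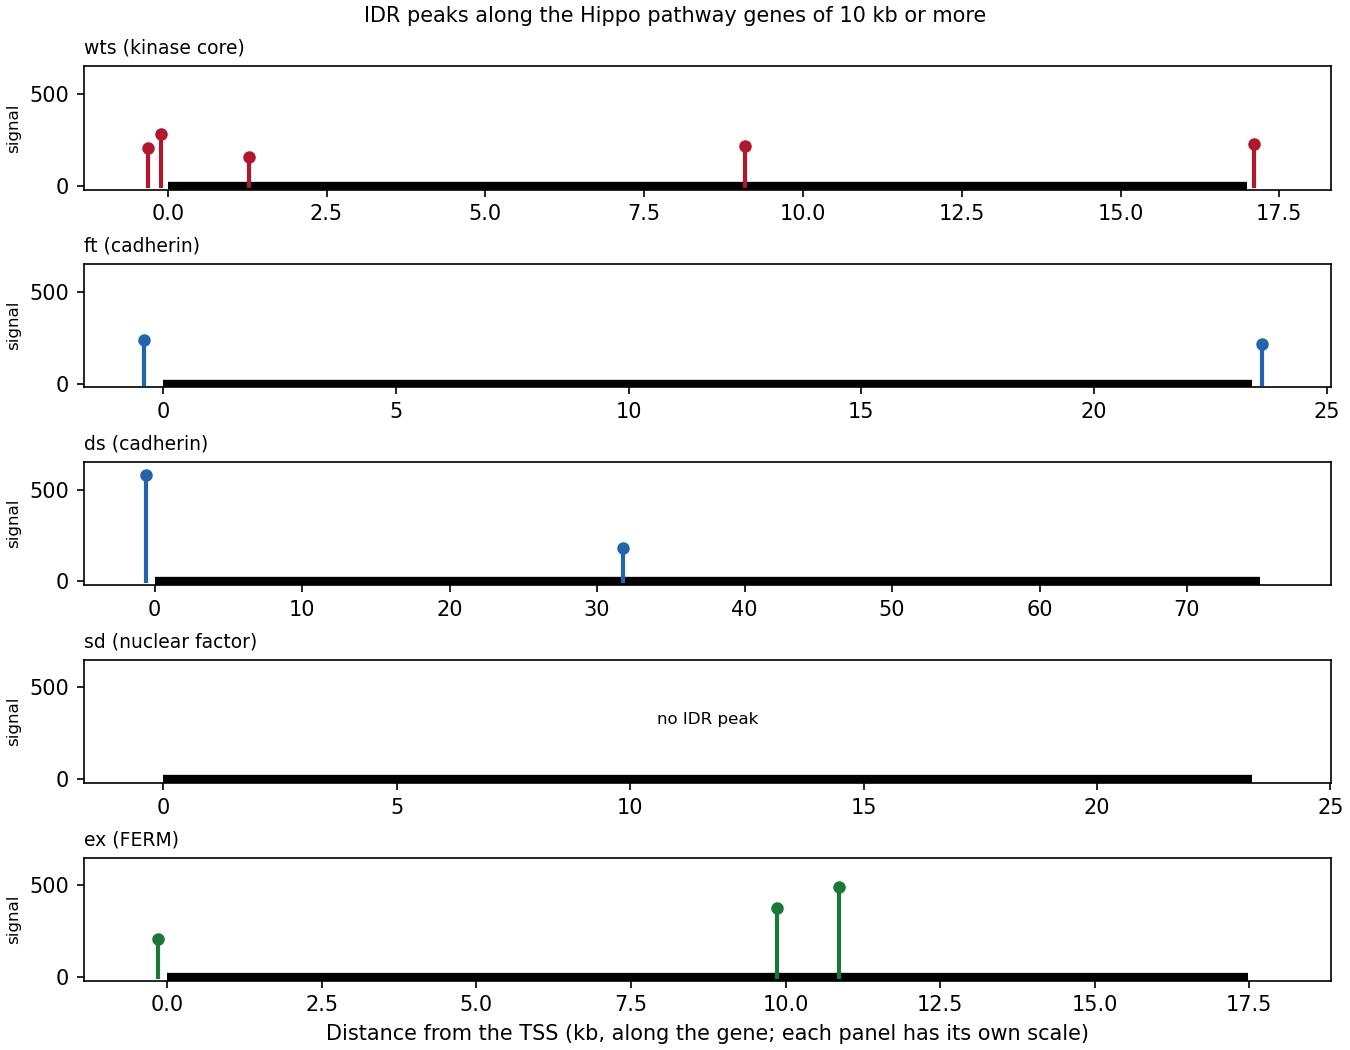
IDR peaks along the 5 Hippo pathway genes of 10000 bp or more, with distance from the TSS in kb along each gene on the horizontal axis, the black bar for the transcribed span and the height of each line for the signal of the peak. The ex panel shows its 2 intronic peaks, at 373.9 and 488.6, above its promoter peak, the ds panel its peak upstream of the TSS, and the sd panel no IDR peak.

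Other components of the pathway were also bound, at 26 of 36 genes, or 72.2%, against the background of 41.7% of protein-coding genes. Of the 36 genes 17 had a head-to-head neighbour, as had 5052 of the 13968 protein-coding genes. Over the whole annotation 72.0% of genes with such a neighbour were bound, and 24.4% of those without one. The strongest peak at the 36 genes was that of Wbp2, which encodes a Yorkie-binding coactivator, at 845.4 and 7 bp upstream of its TSS. The replicates ranked it 579, 488 and 365. It was followed by 14-3-3zeta, whose product holds phosphorylated Yorkie, at 705.7 and 139 bp upstream, kibra, a partner of Ex and Mer upstream of the core, at 585.9 and 141 bp upstream, and dco, the kinase of Fat, at 569.3 and 168 bp upstream. Each of these 4 peaks was stronger than that of any bound member. The 10 genes without an IDR peak included the STRIPAK subunit gene Cka, the Fat-branch genes dachs, Fbxl7 and fj, the BMP transducer gene Mad and the phosphatase gene Pez. Of these, Pez came nearest to the IDR list, with a pooled signal of 132.0 at rank 8091. The bound members had a median signal of 376.2, against 265.4 for these bound regulators and 382.7 for the bound targets of Yorkie described next.

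Genes known as targets of Yorkie were bound at 8 of 12, or 66.7%, against 41.7% of all protein-coding genes, and 3 of the 12 had a head-to-head neighbour. The target entries ban and Dl had no unique match in the annotation and were left out. The highest signals were at the cyclin genes CycB (712.5, 107 bp upstream), CycE (689.2, 484 bp upstream) and CycA (570.0, 25 bp upstream). The CycE summit had no match in replicate 3. Diap1, the inhibitor of apoptosis through which Yorkie promotes survival, followed at 421.0 with a summit 68 bp upstream and ranks of 1473, 1135 and 3005 in the replicates. The genes chinmo, Myc, Ser and vg were not bound, and Myc had no pooled peak within 500 bp of a TSS. Expression was not measured, so these values describe where Trem-eGFP was found and not the activity of Yorkie.

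**Figure D4:**
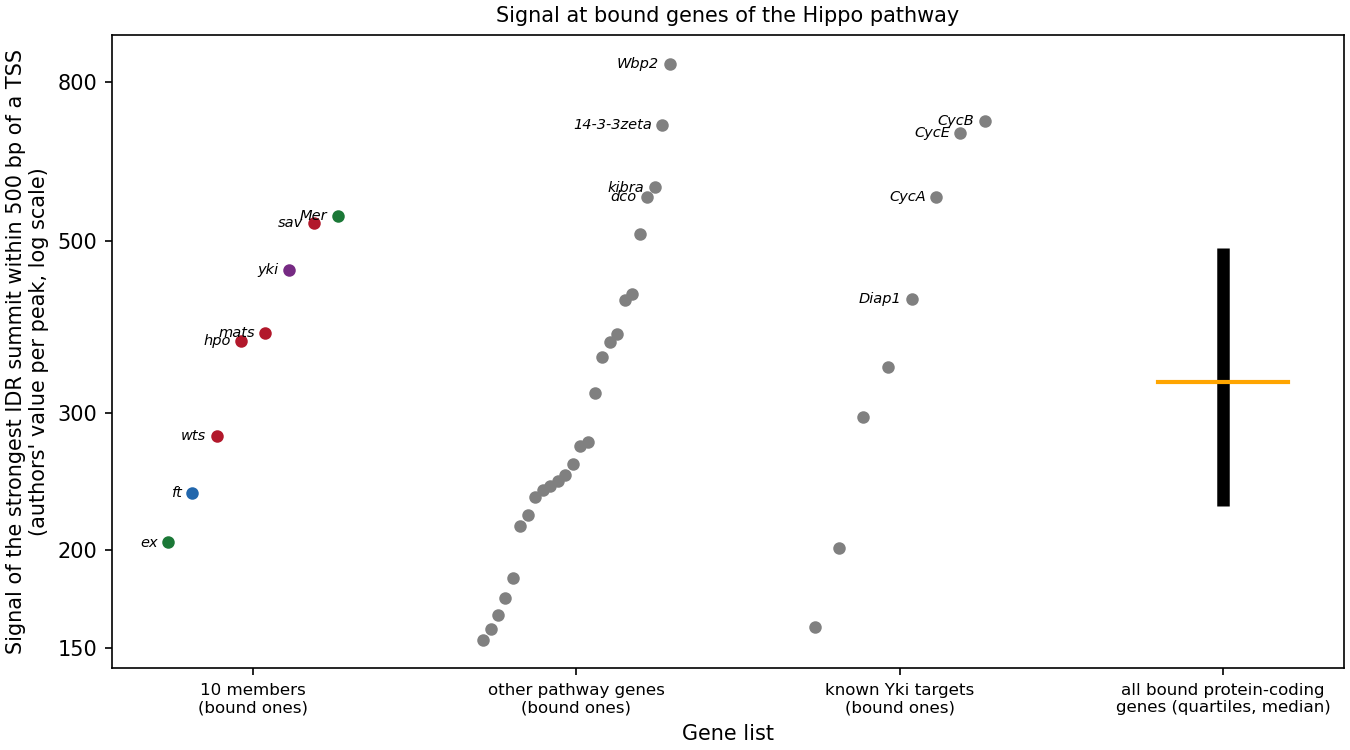
Signal of the strongest IDR summit within 500 bp of a TSS (log scale) for the bound genes among the 10 members, the 36 other pathway genes and the 12 known Yorkie targets, beside the quartiles (black bar) and median (orange line) of all 5818 bound protein-coding genes. The members lie between 204.7 and 538.4, around the median of 329.3, and Wbp2, at 845.4, has the highest value of the 3 lists.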

How the data were processed

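The data were peak lists from chromatin immunoprecipitation sequencing of 3 replicates. Each replicate list (30000 peaks) came from 1 library set against a control, the pooled list (30000) from all 3, and the IDR list (7477) from these lists, on dm6, per the accompanying file lists. No peak caller or setting is given in the sources used here. Signal per peak is the authors' deposited value, compared only within its list; the 7477 IDR peaks were the 7477 pooled peaks of highest signal. Read counts were not analysed here, so depth is unknown. With equally long lists, a given rank can stand for a different strength in a shallower library.

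Summits, ranks and distances were computed in Python 3.11.15 with TSSs of Ensembl release 115, whose chromosome lengths covered every peak, and figures were drawn with Matplotlib 3.10.9. Peaks placed at known distances from genes with a single TSS were all called as placed, inside or outside the limit of 500 bp. No test across genes was used. All 10 members and 36 regulators matched by symbol, as did 12 of 14 target entries. Members and lists were chosen with earlier results of these data known. Genes named are the members, genes sharing their peaks or promoters, and in each list the 4 strongest bound genes and up to 6 unbound ones in alphabetical order. Alternatives varied the distance from the TSS, the TSSs, the peak set and the replicates. Leaving out a replicate kept IDR peaks found within 100 bp among the 7477 strongest of both others, and their signal still includes all libraries. The labels call the replicates biological and do not say how the embryos were divided, so an SD measures the spread between these 3 libraries.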

Additional observations from a re-analysis of the deposited data

How the results depend on the processing

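The count of 8 bound members lay between 6 and 10 under all alternatives, and the core stayed at 4 of 4 in each. The share of all protein-coding genes bound also moved. At 250 bp 7 members and 36.9% of all genes were bound, and at 1000 bp 9 members and 45.0%. Any overlap of the peak with the window gave 9 members and 43.1%. The 3738 strongest IDR peaks gave 6 members and 26.9%, and all pooled peaks 10 members and 58.8%. Without 1 replicate, 6 or 7 members were bound, against shares between 33.4% and 34.5%. The count of cadherins and nuclear factors, 2 of 4, was 1 with a distance of 250 bp, 1 with the 3738 strongest IDR peaks, 4 with all pooled peaks, and between 1 and 2 without 1 replicate. The 3738 strongest IDR peaks bound 13 of the 36 regulators, in place of 26, and 26.9% of all protein-coding genes. All pooled peaks bound 58.8%. The log10 rank difference of core minus cadherins and nuclear factors, -0.42, was -0.79 with a distance of 250 bp and -0.071 with 1000 bp, and lay between -0.49 and -0.35 without 1 replicate. The signal of a peak is a deposited value, so the highest signal at a member could change only where its strongest peak changed. Where a member stayed bound, 41 of 43 such values were the same, and the others were the wts values already given. Settings under which ft or ex was no longer bound are not among the 43. No paired analysis was possible because all samples form 1 group. Depth is unknown, so a missing peak, as at sd in the IDR list, does not show that binding is absent.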
